A study of Mus musculus with 2 samples.

Results

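The regions described here are dense clusters of RUNX2 peaks that lie away from gene ends. The study mapped RUNX2 with CUT&Tag in untreated MC3T3-E1 cells, a mouse osteoblast precursor line, with 1 group of 2 replicate libraries (RUNX2_Rep1 and RUNX2_Rep2). In CUT&Tag an antibody brings the transposase Tn5 to a protein on chromatin, and the cut fragments are sequenced. No control antibody, second condition or genetic change is named in the labels, and whether the 2 libraries came from separate cultures is not stated, so differences between them may be technical. Each library has a list of peaks with positions and widths and no heights, 26853 in replicate 1 and 27287 in replicate 2, and read depth is unknown.

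A region was called shared when merged, overlapping peaks came from both replicates, and its position was the midpoint of its widest replicate 1 peak. Regions on chromosomes 1 to 19 whose position lay over 1 kb from any end of a RefSeq gene were called distal. Neighbouring distal regions at most 12.5 kb apart were chained, and a chain of 3 or more was called a cluster. Of 18133 shared regions, 17836 lay on these chromosomes and 11042 were distal. Clusters held 777 of them, which was 7.04% of the distal regions (95% Wilson interval 6.57 to 7.53) and 4.36% of the shared regions on these chromosomes (4.07 to 4.67). These 777 member regions formed 231 clusters. They were chosen by peak position in both libraries, so their spacing is a description and no test was made on it, nor on their widths, which come from the same peaks.

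RUNX2 is a Runt-domain transcription factor that osteoblasts need to form bone. It binds DNA together with its partner CBFB, and much of its binding in osteoblasts lies far from promoters, at enhancers. Enhancers of one gene can lie close together, and groups of closely spaced, strongly occupied enhancers are often called super-enhancers or stretch enhancers. The lists have no signal height, so that definition could not be applied here.

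A minority of the distal member regions overlapped the stretch just before an annotated transcript start, and for these the RefSeq sequence before the start could be read (GRCm38.p6). Of the 765 member regions on chromosomes for which starts were available, 34 (4.44%, 3.20 to 6.15) lay within 1 kb of such a start, as did 548 of 9923 other distal shared regions (5.52%, 5.09 to 5.99). Starts were available for 16457 of the 20665 protein-coding genes, so both shares may be too low. In all, 25 member regions in 23 clusters overlapped the 250 bases before a start by at least 1 bp, and 16 such windows lay wholly inside a member region. Shown here are 4 of those 16. Ptpn1 (chr2:167932077-167932326, plus strand) and Lmna (chr3:88503353-88503602, minus strand) belong to clusters among the 15 largest. Dse (chr10:34207236-34207485, minus strand) and Cald1 (chr6:34709194-34709443, plus strand) hold the RUNX core motif and an AP-1 motif, and were chosen for these after the windows were searched. The sequences are from RefSeq and run 5′ to 3′ on the gene's strand up to the base before the start, with motif matches in capitals.
Ptpn1: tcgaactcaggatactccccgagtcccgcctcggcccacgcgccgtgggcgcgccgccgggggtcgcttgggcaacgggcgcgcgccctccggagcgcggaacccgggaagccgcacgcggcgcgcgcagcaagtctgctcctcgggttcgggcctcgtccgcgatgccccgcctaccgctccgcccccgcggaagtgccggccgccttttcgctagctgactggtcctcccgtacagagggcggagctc
Lmna: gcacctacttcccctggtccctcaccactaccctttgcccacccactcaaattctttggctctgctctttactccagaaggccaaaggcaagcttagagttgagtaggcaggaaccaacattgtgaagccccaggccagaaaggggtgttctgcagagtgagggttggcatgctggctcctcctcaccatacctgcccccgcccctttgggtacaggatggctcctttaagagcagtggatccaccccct
Dse: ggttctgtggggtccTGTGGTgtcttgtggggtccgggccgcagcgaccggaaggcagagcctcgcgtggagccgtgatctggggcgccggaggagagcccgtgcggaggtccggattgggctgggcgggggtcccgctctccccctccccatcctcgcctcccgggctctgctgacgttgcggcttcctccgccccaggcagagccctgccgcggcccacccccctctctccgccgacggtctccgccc
Cald1: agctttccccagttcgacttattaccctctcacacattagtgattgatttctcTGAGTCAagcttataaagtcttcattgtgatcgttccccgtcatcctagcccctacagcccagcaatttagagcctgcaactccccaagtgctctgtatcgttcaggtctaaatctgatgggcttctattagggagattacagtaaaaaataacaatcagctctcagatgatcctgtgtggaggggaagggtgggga
The RUNX core was searched as TGTGGT and AP-1 as TGAGTCA or TGACTCA, each on both strands, and no printed window holds both. The RUNX core was in 1 of the 16 windows, against 14.0% of all 32817 windows of the same length, and an AP-1 motif was in 1 of 16, against 4.46% of all. A set of 16 windows is too small for a comparison with those shares. Windows only partly inside a member region were searched too. Among these, windows of Kat2b and Gm36913 held the RUNX core and windows of Sphk1 held an AP-1 motif. These genes were named after the search. A match is a description of letters and not a measured binding site. The sequences of member regions that overlapped no window were not analysed here.

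The clusters were mostly small. There were 167 clusters of 3 regions, 49 of 4, 11 of 5, 3 of 6 and 1 of 7, beside 1071 pairs and 8123 regions on their own. The median span from first to last position was 15411 bp (quartiles 12642.5 and 19795), with a range from 4772 to 48650 bp, and all spans together covered 3.88 Mb. Neighbouring members were a median of 7308 bp apart (quartiles 5169 and 9579), and the closest pair was 547 bp apart. Over all distal regions the median gap was 63035 bp. The limit of 12.5 kb falls in a smooth part of the gap distribution: 382 gaps were between 10 and 12.5 kb and 344 between 12.5 and 15 kb, and the gaps on either side of it were 12499 and 12533 bp. Likewise the member nearest to a gene end lay 1003 bp from it, and the regions left out reached 1000 bp. Regions just inside and just outside either limit thus differ little in spacing or position.

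**Figure D1:**
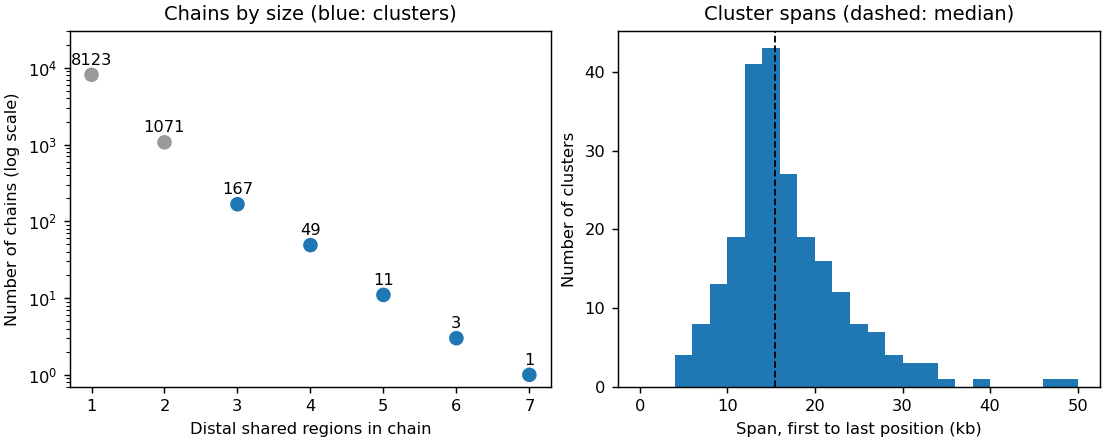
Left, number of chains (log scale) against the number of distal shared regions in the chain, with clusters in blue. Right, number of clusters by span from first to last position in kb, with the median of 15411 bp dashed. Counts fall from 8123 single regions to 167 clusters of 3 and 1 of 7, and most spans lie between 10 and 25 kb.

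Clusters were unevenly spread over the chromosomes. Chromosome 19 had 1.89 clusters per 10 Mb of annotated span, chromosome 17 had 1.79 and chromosome 11 had 1.56. Chromosome 13 had 0.17 with 2 clusters, chromosome 16 had 0.31 with 3 and chromosome 9 had 0.33 with 4. Chromosomes 19, 17 and 11 also carried the most distal shared regions, 5.88 to 7.52 per Mb, and 11.2 to 13.2 protein-coding genes per Mb. Chromosome 7 had more protein-coding genes, 14.0 per Mb, but 3.91 distal regions per Mb. It had 1.31 clusters per 10 Mb, with 11.3% of its distal regions in clusters. Chromosome 9 had 4.10 distal regions and 9.89 protein-coding genes per Mb, and 2.61% of its distal regions were in clusters, against 9.06% on chromosome 11 and 11.5% on chromosome 17.

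Tns3, which encodes tensin 3, a protein that ties integrins to actin at focal adhesions, had more member regions than any other gene. Each region was given to the protein-coding gene that holds its position or, where none does, to the gene with the nearest end. Tns3 (chromosome 11, 8431652 to 8664758, minus strand) had 14 member regions in 3 clusters, out of 18 distal shared regions in all. The cluster of 7, the largest of all, ran from 8663464 to 8710003 over the first part of the gene and the sequence before it. Its first member lay inside Tns3, 848 bp from the annotated transcript start, and the other 6 lay 10231 to 44932 bp upstream of the gene. In replicate 1 the 7 widths were 447, 723, 714, 530, 654, 415 and 486 bp, and in replicate 2 they were 219, 1024, 544, 1012, 787, 389 and 521 bp, in the same order. The second member was the widest of the 7 in both replicates, and the first was the narrowest in replicate 2 only. A cluster of 4 lay inside the gene near its far end (8438879 to 8452043) and one of 3 between the others (8569654 to 8589928), with 118 kb and 74.0 kb between successive clusters.

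Another 4 genes with several clusters showed different layouts. The uncharacterised gene 1600014C23Rik had 8 member regions in 2 clusters on chromosome 17, and all 8 lay 11787 to 64898 bp upstream of it. All 5 members of the first (45745664 to 45767356) lay inside the long noncoding RNA gene F630040K05Rik, and 2 of the 3 members of the second lay inside another noncoding gene, Gm46607. The next protein-coding gene on the far side was Vegfa, which encodes the angiogenic factor VEGF-A, 218 kb from the second cluster. Tomm20, which encodes a mitochondrial import receptor, had 7 members in 2 clusters 11159 to 103960 bp downstream of it, and 5 of the 7 lay inside the noncoding gene Gm31718. Chst11, which encodes a chondroitin sulfotransferase, had 6 members, all inside the gene. Eea1, which encodes an early endosome tether, had 6 members 45918 to 172409 bp upstream. In these genes the cluster layout ran from wholly inside the gene to over 100 kb outside it.

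In all, 12 genes were nearest to members of 2 or more clusters. Neighbouring clusters of one gene lay between 17.2 kb apart, at Prelp, and 118 kb apart, at Tns3. Prelp, which encodes a small leucine-rich matrix proteoglycan, was named after its values were seen.

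The 3 clusters of 6 lay at Fosb, Ptpn1 and Ip6k3. Fosb encodes a subunit of the AP-1 transcription factor, and its cluster (chromosome 7, 19307440 to 19338953) ran from inside the gene towards the neighbouring DNA repair gene Ercc1, with 3 members nearest to each. The member inside Fosb was the widest of the 6 in both libraries, at 1144 and 1182 bp, and the other 5 measured 495 to 783 bp in replicate 1 and 227 to 508 bp in replicate 2. Ptpn1 encodes a tyrosine phosphatase that dampens insulin signalling. Its cluster (chromosome 2, 167919078 to 167959297) had 2 members upstream and 4 inside the gene, including the one whose start sequence is printed above, which was 439 and 388 bp wide. Ip6k3 encodes an inositol hexakisphosphate kinase. Its cluster (chromosome 17, 27131336 to 27180332) had the longest span of all, 48650 bp, and touched 3 genes, with 4 members nearest to Ip6k3, 1 inside Uqcc2 and 1 nearest to Lemd2. One of its members, inside Ip6k3, measured 1298 and 1377 bp, while another, just upstream of that gene, measured 163 and 552 bp.

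Of the 11 clusters of 5, some lay inside one gene, some outside coding genes and some across both. Wholly inside one gene were the clusters of Plec (plectin, which links intermediate filaments to the membrane; chromosome 15, 76189896 to 76207805), Bicral (a subunit of a SWI/SNF chromatin remodelling complex; chromosome 17, 46857434 to 46880287) and Galk2 (a sugar kinase; chromosome 2, 125922351 to 125948855). So were those of Syne3 (nesprin-3, which joins the nuclear envelope to plectin; chromosome 12, 104978325 to 105009065), Zfp469 (a zinc finger protein; chromosome 8, 122155278 to 122187540) and Akap6 (an anchor of protein kinase A; chromosome 12, 52818556 to 52854794). The Plec cluster was the most compact of the 11, with 5 members in 17496 bp. Its widths were 490, 1039, 284, 1578 and 338 bp in replicate 1 and 484, 1070, 407, 869 and 723 bp in replicate 2, so the second and the fourth members were the widest in both libraries.

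Outside the coding genes lay the 5 members at Sgk1, at Haao and at 1600014C23Rik. Sgk1 encodes a kinase induced by serum and glucocorticoids, and its cluster (chromosome 10, 21773394 to 21802109) lay 80569 to 108517 bp upstream of the gene. Its widths were 429, 1015, 218, 1033 and 679 bp in replicate 1 and 642, 644, 167, 1046 and 654 bp in replicate 2. The fourth member was the widest in both libraries and the third the narrowest. Haao, which encodes an enzyme of tryptophan breakdown, was the nearest gene to its cluster (chromosome 17, 83979069 to 84004439) only at 130345 to 154647 bp, and the gene on the other side, Zfp36l2, which encodes an mRNA decay factor, was 180 kb away.

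The remaining 2 clusters of 5 mixed both positions and had members close to annotated starts. Starts of Plec, Bicral and Zfp469 were not available, so closeness to them was not measured. At Lmna, which encodes the nuclear lamins A and C (chromosome 3, 88492434 to 88522233), 2 members lay inside the gene, 449 and 180 bp from annotated starts, 2 lay upstream, and 1 was nearest to Mex3a. The cluster at Midn, which encodes a protein that takes part in protein degradation (chromosome 10, 80141276 to 80168036), had members inside Atp5d, Midn and Cirbp at 454, 482 and 255 bp from annotated starts, and 2 downstream of Midn. These 5 members passed the filter on distance from gene ends because the starts lie inside the annotated gene spans.

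**Figure D2:**
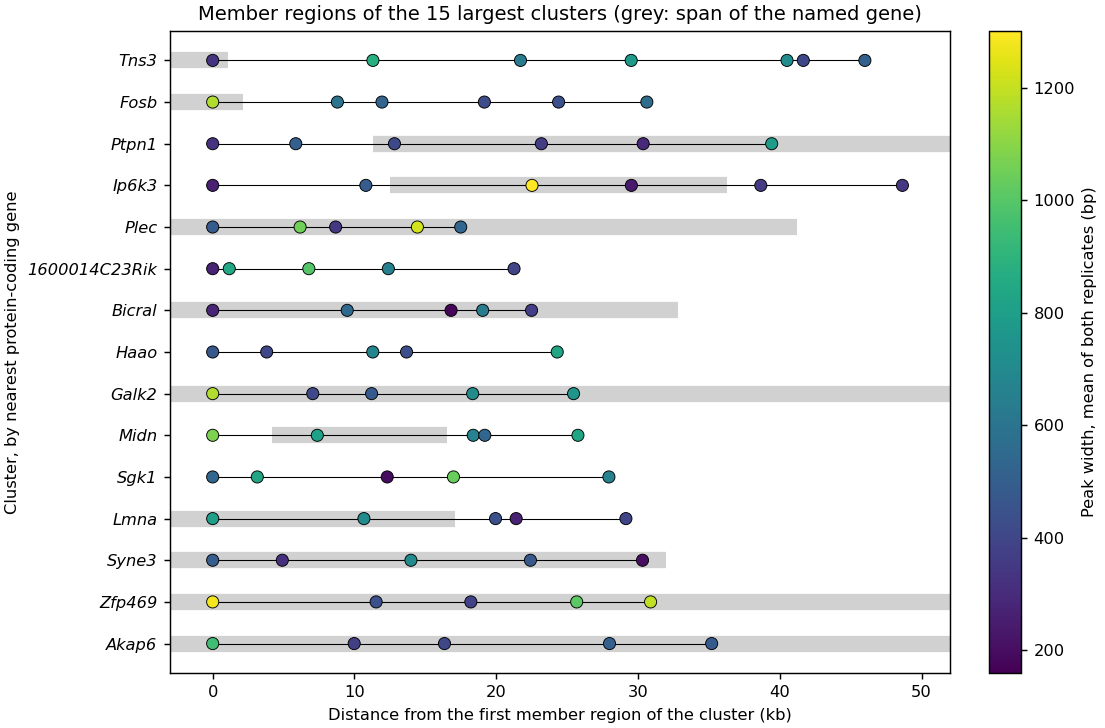
Each row is one of the 15 largest clusters, named by its nearest protein-coding gene, with the distance from its first member region in kb on the horizontal axis. Points are member regions coloured by peak width in bp, the mean of both replicates, and grey bars are the span of the named gene. The Tns3 and Fosb clusters extend out of their genes, and the members at Plec, Bicral, Galk2, Syne3, Zfp469 and Akap6 all lie inside them.

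Peak width was the one other value in the lists. Member regions had a median width of 484 bp in replicate 1 (quartiles 326 and 710) and 483 bp in replicate 2 (328 and 713), a mean of 483.5 ± 0.71 bp (SD, n = 2). The other 10265 distal shared regions had 465 bp (314 and 655) and 467 bp (319 and 658), a mean of 466 ± 1.4 bp (SD, n = 2). In replicate 1 widths ran from 163 to 2052 bp among member regions and from 163 to 2581 bp among the others. The midpoints of the widest peaks of a member region in the 2 replicates were a median of 68 bp apart, against 82 bp for the other distal regions. Widths differed over 2-fold between replicates in 98 member regions (12.6%) and in 14.9% of the other distal regions. Member regions were thus close in width to other distal regions, and the width of a single region varied between the libraries.

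The cluster with the widest members lay inside Dlgap1, a long gene for a synaptic scaffold protein (chromosome 17, 70719842 to 70748590). Clusters were ranked by the mean percentile of their members' widths among all shared regions, which was 92.9 here. Its 4 widths were 768, 1000, 1995 and 803 bp in replicate 1 and 901, 896, 1711 and 1847 bp in replicate 2. All 8 values were above the medians of their lists' member regions, and the fourth member was over 2-fold wider in replicate 2. The nearest gene beyond Dlgap1 was Tgif1, which encodes a repressor in TGF-beta signalling, 96.1 kb from the last member.

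Next came a cluster 33322 to 55062 bp upstream of Cd44, the gene of the hyaluronan receptor (chromosome 2, 102934529 to 102957275), with a mean percentile of 92.7. Its widths were 925, 1616 and 982 bp in replicate 1 and 682, 1618 and 1087 bp in replicate 2. The middle region was the widest in both libraries. The other 3 of the 5 widest were at Zswim4, a zinc finger gene (86.7), at Dusp6, which encodes a phosphatase that limits ERK signalling (85.7), and inside Akap13, which encodes an anchor of protein kinase A (84.7). The 3 members at Dusp6 lay 20888 to 41499 bp downstream of it, and the middle one measured 1399 and 1392 bp in the 2 libraries. At the other extreme, the 3 members 186365 to 202053 bp upstream of Klf4 had the lowest mean percentile of all clusters, 16.2, with widths of 417, 167 and 210 bp and of 225, 255 and 380 bp.

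**Figure D3:**
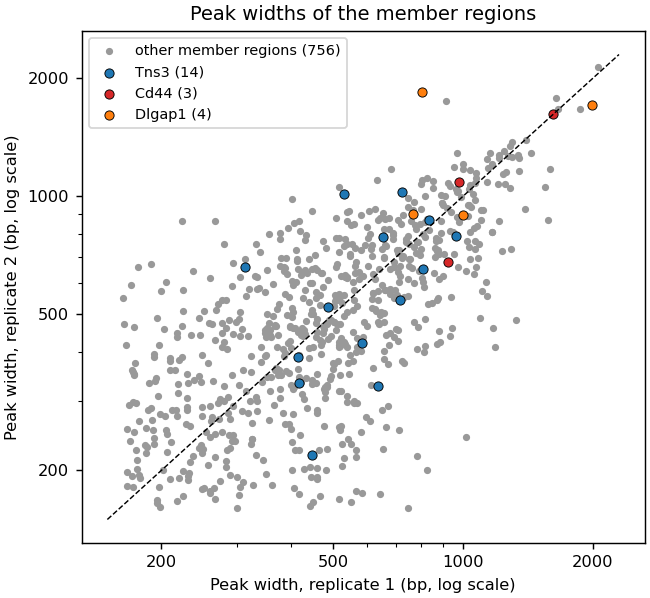
Peak width in replicate 2 against replicate 1, both in bp on log scales, for the 777 member regions, with the line of equal width dashed. Members of the Tns3, Cd44 and Dlgap1 clusters are coloured, and the 4 Dlgap1 members lie at 768 bp or more in replicate 1 and 896 bp or more in replicate 2.

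Relative to genes, 348 member regions (44.8%, 41.3 to 48.3) lay inside a protein-coding gene, 87 (11.2%, 9.17 to 13.6) inside another kind of gene only, and 342 (44.0%, 40.6 to 47.5) outside genes. For other distal shared regions the shares were 52.8% (51.8 to 53.7), 8.53% (8.01 to 9.09) and 38.7% (37.7 to 39.6). With the strand of the nearest protein-coding gene, 223 members (28.7%, 25.6 to 32.0) lay upstream of it and 145 (18.7%, 16.1 to 21.6) downstream, against 19.2% (18.43 to 19.95) and 16.3% (15.6 to 17.0) of the other distal regions. Strand was not known for 61 members (7.85%) and for 11.7% of the others. Regions of 1 cluster share a gene and were not independent, so these intervals cover counting error only and the differences were not tested.

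**Figure D4:**
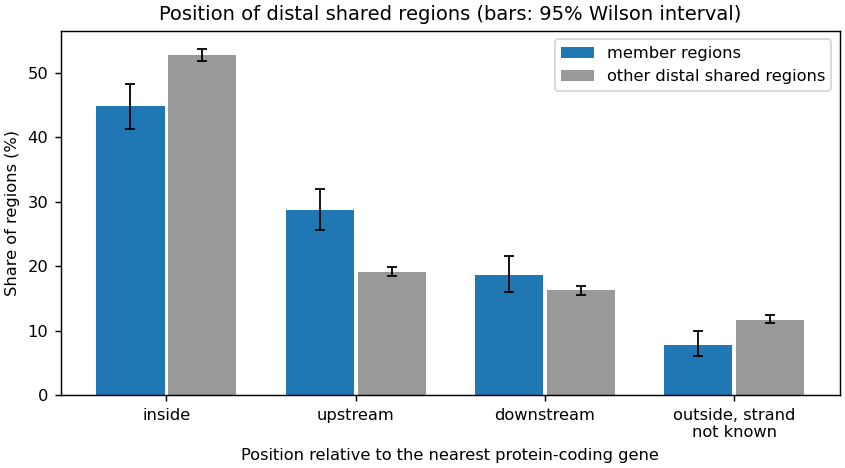
Share of regions in percent inside, upstream or downstream of the nearest protein-coding gene, or outside it with the strand not known, for 777 member regions (blue) and 10265 other distal shared regions (grey), with 95% Wilson intervals. Member regions have the lower share inside genes, 44.8% against 52.8%, and the higher share upstream, 28.7% against 19.2%.

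Counted by cluster, 86 of 231 had all members inside protein-coding genes, 83 of these in one gene, 33 had some inside and some outside, and 112 had none inside. Of those 112, 72 lay wholly outside genes of any kind. The nearer flanking protein-coding gene of the 112 was a median of 25.1 kb away, and 32 of them lay over 50 kb and 14 over 100 kb from both flanks. In 186 clusters every member had the same nearest gene, in 42 there were 2 genes and in 3 there were 3. The cluster spans held 25 peaks of replicate 1 alone and 19 of replicate 2 alone, and 196 clusters had neither. Over the whole list, 18323 of the 26853 replicate 1 peaks overlapped a replicate 2 peak. How densely the single-replicate peaks lay outside the spans was not measured. In 9 clusters the span held 1 shared region each that was left out for lying at a gene end.

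The clusters were nearest to 266 protein-coding genes, which was 1.29% of the 20665 such genes on these chromosomes and 4.98% of the 5337 (25.8% of all) that were nearest to any distal shared region. Of these 266 genes, 191 had 3 or more member regions, 31 had 2 and 44 had 1. Their median length was 56.3 kb, against 44.3 kb for the 5071 genes nearest to other distal regions only and 17.5 kb for all protein-coding genes. A region inside a gene was given to that gene, so length is not independent of how these sets were chosen. All shared regions were searched at annotated starts, in a window from 250 bases before a start to 50 bases after it. An overlap was found for 116 of the 222 cluster genes whose starts were available (52.3%, 45.7 to 58.7). The share was 43.3% (41.8 to 44.9) of the 3962 genes with other distal regions only. It was 34.2% (33.5 to 35.0) of all 16457 protein-coding genes with a start. The regions searched include the other distal regions and the members themselves, of which 25 overlapped the 250 bases before a start. For cluster genes and genes with other distal regions, these shares are thus not independent of the regions that chose the gene sets. Gene length differed between these sets too, and its part in these shares was not tested.

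Genes for bone matrix, early response factors and osteoclast support were among those nearest to clusters. Of 453 genes in 22 lists, 27 were nearest to a member region, to be read against the background of 1.29%. Nearest to some distal region were 17 of 23 osteoblast matrix, 19 of 21 AP-1 and early response and 13 of 16 osteoclast support genes. These lists had the highest shares nearest to a cluster. Over all protein-coding genes, 25.8% were nearest to some distal region, and 4.98% of those were nearest to a cluster. The lists were chosen for bone and for this factor with earlier results of these data known, so their counts are no independent support.

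In the osteoblast matrix list the count was 5 of 23, and 17 of the 23 were nearest to some distal region. It fell to 1, Col5a1, with a chaining distance of 10 kb, to 3 with a reciprocal overlap of at least 50% and to 0 with only the wider peaks of each list. The share of all protein-coding genes nearest to a cluster fell too under these settings, to 0.871%, 0.687% and 0.223% in that order. Counts of the lists below at these settings are to be read against the same shares. Col5a1, which encodes a chain of type V collagen, had 4 members 11582 to 27753 bp upstream (chromosome 2, 27858364 to 27874941), with widths of 530, 237, 649 and 197 bp and of 424, 218, 734 and 310 bp. The third was the widest in both libraries. Tnc, which encodes the matrix glycoprotein tenascin-C, had 4 members 18446 to 51495 bp upstream (chromosome 4, 64065318 to 64098747), all inside the noncoding gene 8030451A03Rik. Col6a1 had 1 member of a cluster whose other 3 were nearest to Col6a2, so that the cluster (chromosome 10, 76648729 to 76669501) lay between these 2 genes for chains of type VI collagen. Fmod, the gene of the proteoglycan fibromodulin, named after its values were seen, had 1 member of a cluster shared with Prelp (chromosome 1, 133978526 to 133991859), and all 3 of its members lay inside the noncoding gene Bmncr.

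One cluster lay in the interval between Mepe and Spp1 on chromosome 5 (104374171 to 104393342). Both genes encode secreted phosphoproteins of mineralised tissue, and Mepe was the 1 of 11 osteocyte and mineralisation genes nearest to a cluster. Of its 3 members, 2 lay 36153 and 42525 bp downstream of Mepe and 1 lay 41961 bp upstream of Spp1, the osteopontin gene. Widths were 772, 1066 and 384 bp in replicate 1 and 969, 734 and 661 bp in replicate 2. The member nearest to Spp1 was the narrowest in both libraries. The cluster was also found with the reciprocal overlap, but not with a chaining distance of 10 kb or with only the wider peaks.

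The osteoclast support and cytokine list had 4 of 16, which became 3 at 10 kb, 2 (Lif and Cxcl12) with the reciprocal overlap and 0 with the wider peaks. Tnfsf11, which encodes RANKL, the ligand that drives osteoclast formation, had 3 members 68088 to 76333 bp upstream (chromosome 14, 78375842 to 78384769), with widths of 352, 502 and 580 bp and of 649, 374 and 251 bp. The order of widths in one library was the reverse of that in the other. Lif, the gene of the cytokine leukaemia inhibitory factor, had 3 members 22181 to 36261 bp downstream (chromosome 11, 4294543 to 4309428), the farthest being the widest at 1257 and 1157 bp. Cxcl12, a chemokine gene, had 3 members 170671 to 183131 bp downstream, and Csf1, the gene of the macrophage growth factor M-CSF, had 1 member 50354 bp upstream.

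The AP-1 and early response list had 4 of 21, which became 2 (Fos and Fosb) at 10 kb, 2 (Fosb and Fosl1) with the reciprocal overlap and 1 (Fosb) with the wider peaks. Besides Fosb, Fos had 3 members 11441 to 26621 bp upstream (chromosome 12, 85447099 to 85462678), with widths of 250, 1033 and 459 bp and of 227, 952 and 203 bp, the middle one being widest in both libraries. Klf4, a zinc finger factor gene, had the 3 narrow regions described above, and Fosl1, another AP-1 gene, had 1 member at 2687 bp.

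The BMP and TGF-beta list had 2 genes (Ltbp2 and Smad3) at 10 kb and 0 with the reciprocal overlap or with the wider peaks. Under the main rule 3 of 35 were nearest to clusters, each with 3 members. These were Id3, which encodes an inhibitor of bHLH factors (9093 to 26491 bp upstream), Smad3, which encodes a TGF-beta signal transducer (45508 to 60316 bp upstream), and Ltbp2, which encodes a matrix protein of the latent TGF-beta binding family (all inside the gene). The fibroblast and stromal list had 3 of 21, Cd44 with 3 members, the fibulin gene Fbln2 with 2 and the endoglin gene Eng with 1. Its count became 2 (Eng and Fbln2) at 10 kb, 2 (Cd44 and Fbln2) with the reciprocal overlap and 1 (Cd44) with the wider peaks. Integrin and focal adhesion genes had 2 of 27, Tns3 and the integrin gene Itgb5, the latter with 3 members inside it. Tns3 stayed under all of these settings, and Itgb5 stayed with the reciprocal overlap only.

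Single genes were nearest to clusters in 5 further lists. They were the Wnt effector gene Tcf7l1 (1 of 37), Dusp6 in the FGF, hedgehog and PTH list (1 of 21), the cyclin E gene Ccne1 in the cell cycle list (1 of 21), the protease gene Adamts12 (1 of 23) and the myosin gene Myh9 in the actin cytoskeleton and YAP list (1 of 31). Tcf7l1, Dusp6, Ccne1 and Adamts12 had 3 members each and Myh9 had 1. A single gene in a list of this size is near the background.

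**Figure D5:**
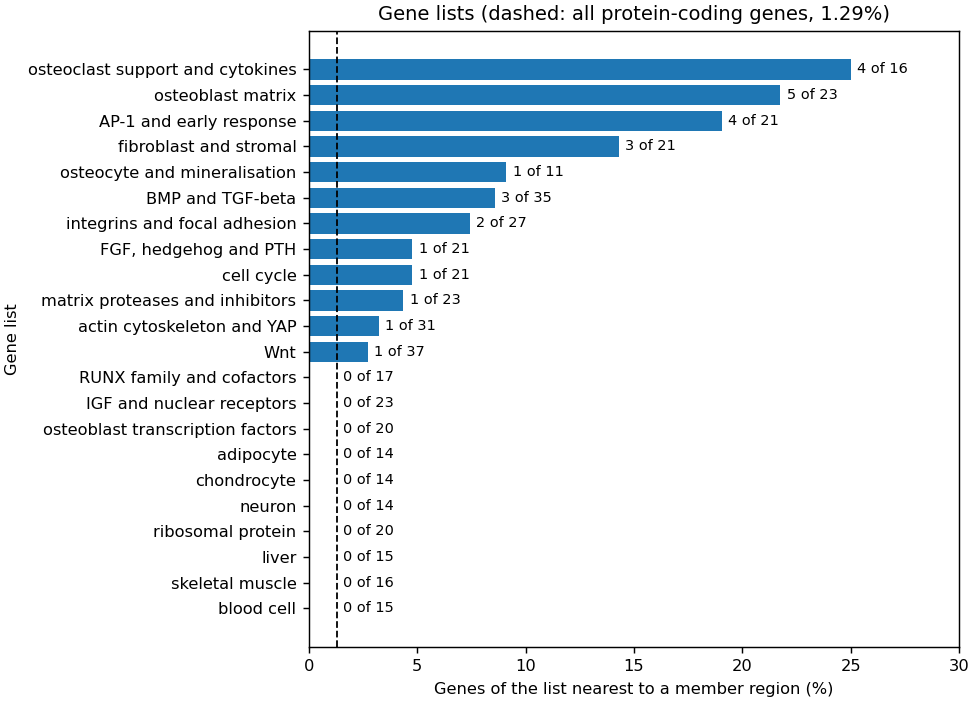
Percentage of the genes of each list that were nearest to a member region, with the counts beside the bars and all protein-coding genes (1.29%) dashed. Among genes nearest to any distal shared region the share was 4.98%. The highest shares are 4 of 16 for osteoclast support and cytokines, 5 of 23 for osteoblast matrix and 4 of 21 for AP-1 and early response genes, and 10 lists are at 0. The order of the lists holds for this rule only: at 10 kb these 3 counts are 3, 1 and 2, where the share of all protein-coding genes is 0.871%.

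The other 10 lists had no gene nearest to a cluster. For the osteoblast transcription factors (0 of 20) and the RUNX family and its cofactors (0 of 17) this went with many distal regions, since 13 and 14 of these genes were nearest to at least 1. Both lists were also at 0 with chaining distances of 15 and 20 kb, where 1.86% and 2.81% of all protein-coding genes were nearest to a cluster. With the peaks of replicate 1 alone each had 2, against 3.19% of all protein-coding genes. With replicate 2 alone the RUNX list had 1, Runx1, against 3.35%. Runx2 itself had 5 distal shared regions, all alone or too far apart to chain, with 28072 to 99477 bp between neighbours. Of IGF and nuclear receptor genes 0 of 23 were nearest to a cluster and 18 to a distal region. The chondrocyte and adipocyte lists had 0 of 14 each, with 7 genes each nearest to a distal region. The neuron list had 0 of 14, the ribosomal protein list 0 of 20, the liver and blood cell lists 0 of 15 each and the skeletal muscle list 0 of 16, with 4, 2, 1, 0 and 1 genes nearest to a distal region. At a background of 1.29% a list of this size would often hold none.

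Many distal regions near a gene did not by themselves make a cluster. Zfp608 was nearest to 20 distal shared regions, more than any other gene, and Myc, which encodes a growth-promoting transcription factor, to 16, and none of these was in a cluster under this rule. Tns3 had 14 of 18 in clusters, Eea1 6 of 12 and Tnc 4 of 13. Among the genes always looked at, Sp7, the osterix gene, had 1 distal region, Spp1 had 3 with 1 in a cluster, and Bglap, Ibsp, Alpl, Col1a1 and Mmp13 were nearest to none. Zfp608 and Myc were named after their values were seen.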

How the data were processed

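Peak lists of the 2 replicates were used as the authors deposited them, with the chromosome, start, end and width in bp of each peak. In all 54140 lines the width equals end minus start plus 1, so positions were read as counted from 1. The lists have no score. Per the submitters' processing notes, fastp 0.19.6, Bowtie2 and deepTools were used and the build is GRCm38 (mm10); a peak caller and its threshold are not given in any source used here.

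Peaks overlapping by at least 1 bp were merged in Python 3.11.15 (numpy 2.4.6, scipy 1.17.1), and counts of overlapping peaks equalled those of bedtools 2.31.1. Gene spans came from RefSeq (GRCm38.p6), which lists 49943 genes on these chromosomes and on X and Y. Strands and transcript starts came from a RefSeq table that is not complete and has no chromosome 18. The clustering code was tested on simulated data. Wilson intervals at the 95% level cover counting error of shares only, and no hypothesis was tested.

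Genes were named by a rule: the nearest genes of the 15 largest clusters and of the 5 with the widest members, the 5 genes with 2 or more clusters and the most members, up to 4 genes of each list, and 8 genes always looked at. The members and lists were chosen with earlier results of these data known. The 14 alternatives changed the chaining distance, cluster size, distance from gene ends, overlap, peak width, replicate and gene link.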

Additional observations from a re-analysis of the deposited data

How the results depend on the processing

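The limits of the rule set how many clusters there were, and 44 of 93 values moved under the 14 alternatives, by over 1.5 times for counts or beyond the main value's 95% interval for shares and the median span. With 20 kb in place of 12.5 kb there were 480 clusters, 1701 member regions (15.4% of distal regions), 581 genes, 50 listed genes and a median span of 25013 bp. With 15 kb the share was 10.2% and the span 18939 bp, and with 10 kb they were 4.71% and 13842 bp, with 14 listed genes. The counts of listed genes, list by list, under settings other than 20 kb, single replicates and the gene link were added after seeing the data. Chains of 4 or more numbered 64, with 276 regions (2.50%), 84 genes, 6 listed genes and a span of 22828 bp. A reciprocal overlap of at least 50% left 120 clusters, 396 regions (4.92%), 142 genes and 14 listed genes, and only peaks wider than their list's median left 42 clusters, 134 regions (2.59%), 46 genes and 5 listed genes. The share was 7.68% over 0.5 kb, 6.15% over 2 kb and 5.67% over 3 kb from gene ends, where 172 genes were left, and 8.05% with protein-coding gene ends only. With the peaks of a single replicate, which need not be shared, there were 609 to 662 clusters, 2082 to 2264 regions (11.6% to 12.4%, 48.7% to 52.3% of them inside protein-coding genes), 660 to 693 genes and 57 to 60 listed genes. Of the 231 clusters, 222 overlapped one made with replicate 2 positions, 120 one made with the reciprocal overlap and 42 one made with the wider peaks. Of the 15 largest, 5 (at Tns3, Fosb, Plec, 1600014C23Rik and Haao) overlapped a cluster under those 3 settings, the 10 kb distance and the 3 kb limit alike. No paired analysis was possible because there is 1 group. Depth is unknown, and a region missing from a list may carry signal below the calling limit.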

Other observations

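Chromosome X was outside the rule and had 1 chain of 3 distal shared regions, spanning 14419 bp. Of its regions, 2 were nearest to Tsc22d3, which encodes the glucocorticoid-induced leucine zipper protein, at 28223 and 19054 bp, and 1 was nearest to Prps1, which encodes an enzyme of nucleotide synthesis, at 29915 bp. The peaks were 362, 411 and 625 bp wide in replicate 1. With a chaining distance of 20 kb the largest chain of chromosomes 1 to 19 was the one at Col5a1, with 9 regions over 73398 bp.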
